A study of Rattus norvegicus with 36 samples.

Results

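The circadian Per, Rev-erb and PAR-bZIP genes were followed through vocal fold (VF) injury and into cultured VF fibroblasts of the rat. The set held 10 genes, Per1, Per2, Per3, Dbp, Tef, Hlf, Nr1d1, Nr1d2, Bhlhe40 and Bhlhe41, and every probe set annotated to a single one of these symbols was taken. All 10 genes were on the array, 10 of its 14217 named genes, with 19 of the 31042 probe sets that are no array control, and 5 of the genes had several probe sets. None of the 19 shared its annotation with another gene. Where a gene had several, the probe set with the highest mean over the 36 arrays is called its lead probe set.

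VF mucosa came from Fischer 344 rats, male according to the methods, that were 120 days old when the experiment began. Both VFs of the post-injury (PI) rats had their mucosa stripped, and the bilateral mucosae of 4 rats were pooled for each array. PI mucosa was taken 3, 14 and 60 days after injury, at 123, 134 and 180 days of age, on 5 arrays at each time point, and age-matched uninjured control mucosa was run on 3, 3 and 2 arrays. These counts are those of the array labels, and the methods give other counts for 60 days. A further 13 arrays held passage 1 fibroblasts grown from mucosal explants of 1 rat each: 3 naive cultures, 4 scar cultures from rats 60 days PI, 3 scar cultures given 50 nM siRNA against gp46 (the collagen chaperone Serpinh1) for 1 h and collected 24 h later, and 3 scar cultures given scramble siRNA in the same way. The rats carried no transgene or deletion, and all cultures were kept in serum. The sources used here do not give the time of day at which any mucosa was harvested or any culture was collected. For genes whose RNA cycles over the day, a difference in the hour of harvest and an effect of injury or treatment therefore cannot be told apart.

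In the mammalian clock, BMAL1 paired with CLOCK or NPAS2 binds E-boxes in DNA and switches on the Per and Cry genes, whose proteins then return to the nucleus and block that same pair. BHLHE40 and BHLHE41, also known as DEC1 and DEC2, compete for E-boxes, and the nuclear receptors REV-ERB alpha (Nr1d1) and REV-ERB beta (Nr1d2) repress Bmal1. Dbp, Tef and Hlf encode the PAR-bZIP transcription factors, which act on D-boxes and carry clock time to downstream genes, and their RNA typically peaks opposite to that of Bmal1. Per1 and Bhlhe40 also respond to serum, glucocorticoids, cAMP or hypoxia, so these genes read signals other than the clock.

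After injury most of these genes had lower signals than in control mucosa. At 3 days PI 8 of the 19 probe sets were called by limma at an adjusted p under 0.05, against 23% of all probe sets tested, with 7 lower (12% of all probe sets were lower) and 1 higher (11%). At 14 days PI 6 were called, all of them lower, while 1.92% of all probe sets were called and 0.673% were lower. At 60 days PI Per2 alone was called, again lower, in a comparison in which 0.0387% of all probe sets were called and 0.0258% were lower. The median log2 fold change of the 10 lead probe sets was -0.53, -0.82 and -0.70 at 3, 14 and 60 days, and that of all probe sets was -0.01, -0.01 and 0.00. The PI arrays were compared with different control arrays at each time point. These are whole-tissue levels, in which fewer cells of a type and less RNA per cell cannot be told apart.

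**Figure D1:**
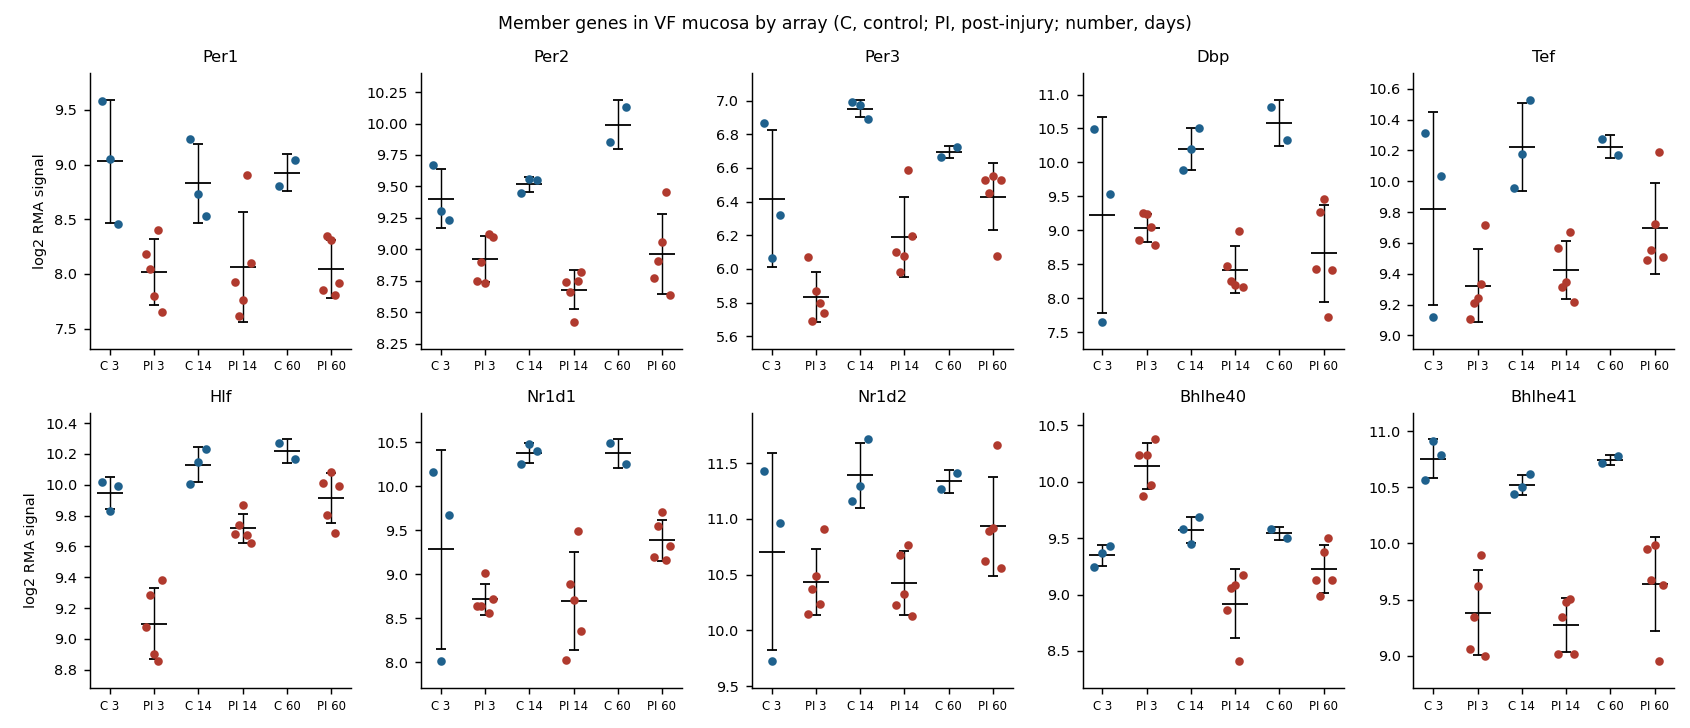
Log2 RMA signal of the lead probe set of each gene (y axes, each with its own range that does not start at 0) on every mucosa array (points), in control (C, blue) and PI (red) groups at 3, 14 and 60 days, with group mean and SD in black. At 14 days PI the points lie below the controls in all panels but that of Per1. How many of all probe sets part in this way was not counted. For Dbp, Tef, Nr1d1 and Nr1d2, 1 of the 3 control arrays at 3 days lies far below the others.

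**Figure D2:**
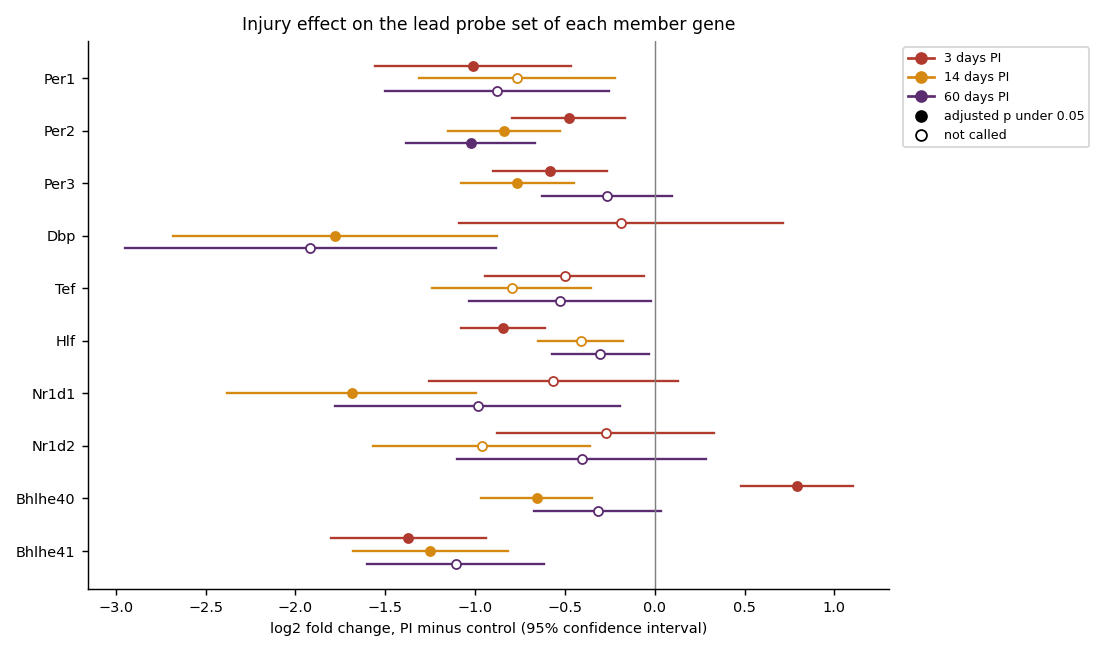
Log2 fold change, PI minus control, of the 10 lead probe sets (x axis) at 3, 14 and 60 days, with 95% confidence intervals as lines and filled points for an adjusted p under 0.05. Bhlhe40 at 3 days, at 0.79, is the only point to the right of 0.

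The stretch before the start site was read for 9 of the 10 genes from RefSeq (GRCr8), 10 windows of 250 bases in all, since Nr1d1 has 2 annotated starts. The motifs searched on both strands were CACGTG (E-box), CACGTT (a variant E-box), TTATGTAA and TTACGTAA (D-box forms), AGGTCA (the core letters read by REV-ERB and ROR receptors) and TGACGTCA (the cAMP response element). Of the 33469 windows of the rat annotation 5.59%, 4.07%, 0.828%, 0.108%, 14.1% and 1.59% held them, in that order. Either E-box form was found for 5 of the 9 genes. Per2 had CACGTT 62 bases and TTATGTAA 192 bases before its start, Bhlhe41 had CACGTG at 48 bases, Tef at 198, Bhlhe40 at 220, and Nr1d1 had CACGTT at 174 bases of its upstream start and CACGTG at 191 bases of its downstream start. Nr1d2 had AGGTCA at 187 bases, and Bmal1, which is no member of the set, had it at 15 bases. No 2 of these matches overlapped, and the windows of Per1, Per3 and Dbp held none of the letters searched. A match describes the letters only.

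The 4 windows printed here belong to the genes with the clearest differences after injury that hold an E-box form, with E-box and D-box letters in capitals. Each ends at the base before the start site and is written 5′ to 3′ on the strand of the gene. They lie at chr9:99496994-99497243 (minus strand, Per2), chr10:84231813-84232062 (minus strand, Nr1d1, upstream start), chr4:180569356-180569605 (minus strand, Bhlhe41) and chr4:143174200-143174449 (plus strand, Bhlhe40).
Per2: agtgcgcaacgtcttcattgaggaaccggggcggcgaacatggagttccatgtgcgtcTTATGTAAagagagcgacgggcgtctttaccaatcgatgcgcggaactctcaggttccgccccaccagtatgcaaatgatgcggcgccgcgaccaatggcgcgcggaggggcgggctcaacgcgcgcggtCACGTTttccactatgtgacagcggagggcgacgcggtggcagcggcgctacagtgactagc
Nr1d1: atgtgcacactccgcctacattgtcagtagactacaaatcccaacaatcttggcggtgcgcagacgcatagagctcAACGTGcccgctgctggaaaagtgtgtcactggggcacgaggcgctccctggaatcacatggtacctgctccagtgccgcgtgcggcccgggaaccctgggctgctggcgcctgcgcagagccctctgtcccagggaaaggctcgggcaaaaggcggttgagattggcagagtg
Bhlhe41: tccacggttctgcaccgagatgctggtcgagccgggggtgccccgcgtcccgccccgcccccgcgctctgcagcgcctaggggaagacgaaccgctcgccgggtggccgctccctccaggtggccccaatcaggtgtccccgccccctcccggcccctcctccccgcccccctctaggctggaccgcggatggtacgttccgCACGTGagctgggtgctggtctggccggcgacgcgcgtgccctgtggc
Bhlhe40: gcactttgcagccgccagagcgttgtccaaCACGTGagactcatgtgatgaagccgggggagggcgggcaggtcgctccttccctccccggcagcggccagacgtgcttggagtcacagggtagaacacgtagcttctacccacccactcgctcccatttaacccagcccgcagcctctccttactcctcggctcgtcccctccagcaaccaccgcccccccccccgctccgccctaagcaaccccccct

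The arrays have limits of their own. All 36 arrays had been brought to the same distribution of signals, between 2.72 and 14.74 log2, and their number limits the precision. In 3 mucosa arrays a set of 140 ribosomal and respiratory chain genes was low. Its median deviation from the group mean was -0.47 on replicate 5 of the 3-day PI group and -0.34 on replicate 4 of the 60-day PI group. It was -0.17 on a 14-day control, replicate 3. The other mucosa arrays lay between -0.13, on 3-day control replicate 2, and 0.13. Epithelial markers averaged 12.4 to 13.1 log2 in mucosa and 5.46 to 5.83 in the cultures, and fibroblast markers averaged 12.8 to 13.4 in the cultures. One of the 3 control arrays at 3 days, replicate 2, stood apart for the clock genes: its Dbp, Tef, Nr1d1 and Nr1d2 signals were 2.36, 1.05, 1.91 and 1.47 log2 below the mean of the other two. For Bmal1 and Cry1 it was replicate 1 that lay apart within this group, at 8.03 and 8.59, against 8.91 and 9.64 on replicate 2 and 8.73 and 9.38 on replicate 3. The 14- and 60-day control means, 8.23 and 7.90 for Bmal1 and 8.76 and 8.84 for Cry1, were nearer to replicate 1. The mean of 11 mature muscle genes was 11.98 on replicate 2 against 12.75 and 12.65 on replicates 1 and 3, and that of 7 leukocyte markers 9.55 against 8.38 and 8.82, and the part of these in the clock gene values was not tested. The 3-day comparison of the members' lead probe sets is therefore also given without control replicate 2. This is done where leaving it out changes a call or moves the value by more than 1.5 times. The array was singled out after these same values were seen. Leaving out a low control moves the PI minus control difference down, so the adjusted p values without it are a description only. For Dbp, Tef, Nr1d1 and Nr1d2 the difference without control replicate 1 is also given.

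The Per genes encode the repressors that pair with the CRY proteins. Per2 was the gene with a called fall at each time point. On the 5 PI arrays at 3 days its log2 signals were 8.75, 8.90, 8.74, 9.12 and 9.10, and on the 3 controls 9.67, 9.31 and 9.23. At 14 days they were 8.74, 8.66, 8.42, 8.75 and 8.82 in PI and 9.45, 9.56 and 9.55 in control mucosa. At 60 days they were 8.77, 8.91, 9.06, 9.46 and 8.64 in PI and 9.85 and 10.13 in control mucosa. The PI arrays lay below the controls at all 3 time points, without overlap. The log2 fold changes were -0.48 (SE 0.15, limma adjusted p = 0.0238), -0.84 (SE 0.15, adjusted p = 0.00362) and -1.02 (SE 0.17, adjusted p = 0.0235), or 1.39-, 1.79- and 2.03-fold lower. The 3-day call was lost without control replicate 1 (adjusted p = 0.174) and without PI replicate 1 or 3 (0.0521 and 0.0572), and with the probe sets of Per2 averaged (0.0537). The 60-day call was lost without control replicate 1 or 2 (0.223 and 0.271), without PI replicate 2 or 5 (0.0552 and 0.0614), with the probe sets averaged (0.0581), and with the 60-day arrays fitted alone (0.542). The other Per2 probe set lay between 7.93 and 8.42 in all mucosa groups and had log2 fold changes of 0.04, -0.04 and 0.02, so the probe sets of Per2 disagree.

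Per1, the Per gene that also answers quickly to hormones and stress, was lower at every time point but called at 3 days only. Its signals at 3 days PI were 8.19, 8.05, 7.80, 8.40 and 7.65, against 9.58, 9.05 and 8.46 in controls, with no overlap and a log2 fold change of -1.01 (SE 0.26, adjusted p = 0.00751). Without control replicate 1 that difference was -0.73 (adjusted p = 0.0841). At 14 days PI replicate 4, at 8.90, lay among the controls (9.23, 8.73 and 8.53), while the other 4 PI arrays were between 7.62 and 8.10. The log2 fold change was -0.77 (SE 0.26, adjusted p = 0.174) with all arrays and -0.98 (adjusted p = 0.0301) without that replicate. At 60 days the 5 PI arrays were between 7.81 and 8.35 and the controls at 8.81 and 9.04, a difference of -0.88 (SE 0.30, adjusted p = 0.398) that was called when the controls of the 3 ages were pooled (adjusted p = 0.0106).

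Per3, whose protein adjusts rather than drives the rhythm, fell at 3 and 14 days PI. At 3 days the PI signals were 6.07, 5.69, 5.87, 5.79 and 5.74 and the control signals 6.87, 6.07 and 6.32. PI replicate 1 and control replicate 2 were level. At 14 days the PI signals were 6.10, 5.98, 6.08, 6.59 and 6.20, all below the controls at 6.99, 6.97 and 6.89. The log2 fold changes were -0.58 (SE 0.15, adjusted p = 0.00770) and -0.76 (SE 0.15, adjusted p = 0.00875). The 3-day call was lost without control replicate 1 (adjusted p = 0.104) and with both Per3 probe sets averaged (0.0654), and the 14-day call without control replicate 1 or 2 (0.0531 and 0.0521). At 60 days 4 of 5 PI arrays were between 6.45 and 6.55, close to the controls at 6.67 and 6.72, and the difference was -0.27 (SE 0.17, adjusted p = 0.771). The second Per3 probe set, between 5.08 and 5.52 in mucosa, was not called at any time point.

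Bhlhe40 and Bhlhe41 encode E-box repressors of the same family, and they parted at 3 days PI. Bhlhe40 read 10.24, 9.88, 10.23, 9.97 and 10.38 at 3 days PI, above the controls at 9.25, 9.37 and 9.43. At 14 days PI it read 8.86, 9.06, 9.09, 8.41 and 9.17, below the controls at 9.58, 9.45 and 9.69. It rose by 0.79 log2 at 3 days (SE 0.15, adjusted p = 5.25e-04, 1.73-fold) and fell by 0.66 at 14 days (SE 0.15, adjusted p = 0.0203). The 14-day call was lost without any 1 of the 3 controls (adjusted p = 0.0920, 0.0562 and 0.140 without replicates 1, 2 and 3). At 60 days PI the values were 9.13, 8.99, 9.38, 9.51 and 9.13 against 9.583 and 9.503, a difference of -0.32 (SE 0.17, adjusted p = 0.691).

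Bhlhe41, which is also a repressor of muscle and cartilage programmes, was lower at 3 days and 14 days PI by a wide margin. Its signals were 9.06, 9.34, 9.62, 9.89 and 8.997 at 3 days PI against 10.57, 10.91 and 10.79 in controls. At 14 days they were 9.02, 9.34, 9.47, 9.503 and 9.02 against 10.44, 10.50 and 10.62. At 60 days they were 9.95, 9.68, 9.98, 8.95 and 9.63 against 10.71 and 10.78. No PI array reached a control array at any time point. The log2 fold changes were -1.37 (SE 0.21, adjusted p = 5.35e-05), -1.25 (SE 0.21, adjusted p = 0.00186) and -1.11 (SE 0.24, adjusted p = 0.0912), or 2.59-, 2.38- and 2.16-fold lower. The last of these was called with array weights (adjusted p = 0.0390) and with the controls pooled (4.94e-04).

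The Rev-erb genes encode the receptors that hold down Bmal1. Nr1d1 read 8.03, 8.88, 8.71, 9.49 and 8.35 at 14 days PI, below the controls at 10.26, 10.48 and 10.40. This was a difference of -1.69 log2 (SE 0.33, adjusted p = 0.00818), or 3.22-fold lower, and it was not called without control replicate 2 (adjusted p = 0.0532). At 60 days the PI arrays were at 9.20, 9.54, 9.71, 9.16 and 9.31, all below the controls at 10.48 and 10.26, and the difference of -0.99 (SE 0.38, adjusted p = 0.485) was not called. At 3 days the 5 PI arrays lay between 8.56 and 9.01, with control replicate 2 below them at 8.01 and the other 2 controls above them at 10.16 and 9.67. The 3-day difference was -0.56 (SE 0.33, adjusted p = 0.248) with all arrays and -1.20 (adjusted p = 0.00198) without that control. With control replicate 1 left out instead, it was -0.12.

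Nr1d2, the second Rev-erb gene, had lower PI means on its lead probe set without a call. At 14 days the PI arrays read 10.23, 10.68, 10.32, 10.77 and 10.13, and the controls 11.16, 11.30 and 11.71. The groups did not overlap and the log2 fold change was -0.96 (SE 0.29, adjusted p = 0.104), with -1.09 (SE 0.28, adjusted p = 0.0503) on the second probe set. With array weights or with the 14-day arrays fitted alone both were called (adjusted p = 0.00130 and 0.0151 on the lead, 3.95e-04 and 0.00269 on the second). At 3 days the difference on the lead was -0.27 (SE 0.29, adjusted p = 0.560), and -0.76 (adjusted p = 0.0372) without control replicate 2. With control replicate 1 left out instead, it was 0.09. At 60 days it was -0.41 (SE 0.33, adjusted p = 0.816), with PI replicate 4 the highest of all 7 arrays at 11.66.

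Dbp, Tef and Hlf encode the PAR-bZIP factors. Dbp, one of the strongest cycling transcripts known in rodent tissue, had the widest range of the 10 lead probe sets in mucosa. At 14 days it read 8.48, 8.25, 8.20, 8.99 and 8.17 in PI and 9.89, 10.20 and 10.51 in control mucosa, and at 60 days 8.44, 9.27, 9.47, 7.72 and 8.41 in PI and 10.82 and 10.34 in control mucosa. The groups were apart at both time points. The difference was -1.78 log2 at 14 days (SE 0.43, adjusted p = 0.0332), or 3.44-fold lower, and -1.92 at 60 days (SE 0.50, adjusted p = 0.197). The 14-day call did not hold in 9 of the settings tried: it was lost without PI replicate 1, 2, 3 or 5 (adjusted p = 0.0594, 0.0709, 0.0641 and 0.0846) or control replicate 1, 2 or 3 (0.0804, 0.128 and 0.185), without the 3 arrays with low ribosomal genes (0.0953), and with replicate numbers as a block (0.101). At 3 days the PI arrays were narrowly placed at 8.86, 9.25, 9.23, 9.05 and 8.79, whereas the controls were spread over 10.49, 7.65 and 9.53. The 3-day difference of -0.19 (SE 0.43, adjusted p = 0.811) has a 95% interval from -1.09 to 0.71, and without control replicate 2 it was -0.98 (SE 0.35, adjusted p = 0.0565). With control replicate 1 left out instead, it was 0.45.

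Tef had lower PI means on its lead probe set at each time point and was not called at any of them. At 14 days the PI signals were 9.57, 9.31, 9.35, 9.67 and 9.22 and the control signals 9.96, 10.18 and 10.53, apart by -0.80 log2 (SE 0.21, adjusted p = 0.0571). At 3 days the difference was -0.50 (SE 0.21, adjusted p = 0.0978), and -0.85 (adjusted p = 0.00273) without control replicate 2, which at 9.12 lay with the PI arrays (9.11, 9.21, 9.25, 9.33 and 9.72). Without PI replicate 5, the highest of these, it was -0.60 (adjusted p = 0.0486). With control replicate 1 left out instead, it was -0.25. At 60 days it was -0.53 (SE 0.24, adjusted p = 0.596). The second Tef probe set, near 6 log2, had differences of 0.02, -0.58 and -0.88 (adjusted p = 0.952, 0.0564 and 0.0895), and the third of 0.05, -0.44 and -0.03. On both, control replicate 2 was the lowest 3-day control, at 5.96 and 5.88. The other 3-day controls read 6.77 and 6.35 on the second probe set and 6.21 and 6.30 on the third.

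Hlf, unlike Dbp, was called at 3 days PI, on 3 of its 4 probe sets. The lead read 9.08, 9.29, 8.90, 8.85 and 9.38 at 3 days PI, against 10.02, 9.83 and 9.99 in controls, with a log2 fold change of -0.85 (SE 0.11, adjusted p = 1.22e-05), or 1.80-fold lower. Control replicate 2 lay with the other controls for this gene. The second probe set and the third fell by 0.94 (SE 0.15) and 0.80 (SE 0.14), with adjusted p = 1.19e-04 and 3.42e-04. The fourth lay between 3.85 and 4.47 in mucosa, among the lowest signals of the arrays, and was not called. At 14 days the lead read 9.68, 9.74, 9.87, 9.68 and 9.62 in PI and 10.01, 10.15 and 10.23 in control mucosa, a difference of -0.41 (SE 0.11, adjusted p = 0.0663). At 60 days the PI arrays, at 10.01, 9.80, 10.08, 9.69 and 9.99, were all below the controls at 10.27 and 10.16, and the difference was -0.30 (SE 0.13, adjusted p = 0.560).

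Markers of other cell types also differed at 3 days PI, when 23% of all probe sets were called. Of 11 mature muscle genes 9 were lower at 3 days PI, and the mean of the list was 11.3 to 12.2 log2 on the PI arrays and 11.98 to 12.75 on the controls. Of 7 fibroblast markers 5 were higher (12.3 to 12.4 against 11.5 to 11.7), of 7 leukocyte markers 2 (8.72 to 10.1 against 8.38 to 9.55), of 8 epithelial markers 2 were higher and 1 lower (12.4 to 12.7 against 12.6 to 12.9), and of 3 endothelial markers 1 was higher. Their part in the members' values was not tested. At 14 days 1 muscle gene, 2 fibroblast markers and 1 endothelial marker were higher and no epithelial or leukocyte marker was called, with mean muscle levels of 12.8 to 13.2 on both PI and control arrays. At 60 days no marker of these lists was called, when 0.0387% of all probe sets were, against 1.92% at 14 days. The mean muscle level was 12.87 to 13.29 on the 60-day PI arrays and 12.58 to 12.66 on the controls, without overlap. That of the endothelial markers was 9.38 to 10.18 against 9.25 to 9.30, also without overlap. The PI and control arrays overlapped for the epithelial, leukocyte and fibroblast lists. The part of these levels in the members' values was not tested. The markers of thyroid, a neighbouring tissue, were between 5.15 and 5.63 on all mucosa arrays.

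Whether the injury effect of a gene differed between time points was tested directly. Bhlhe40 was the member whose effect at 14 days differed from that at 3 days, by -1.45 log2 (SE 0.21, adjusted p = 1.70e-04), where 6.58% of all probe sets were called. Between 60 and 3 days 4 of 19 probe sets differed, against 11.4% of all: Bhlhe40 by -1.11 (SE 0.23, adjusted p = 0.00285), the second Tef probe set by -0.90 (SE 0.23, adjusted p = 0.0157), and the lead and second Hlf probe sets by 0.54 (SE 0.17, adjusted p = 0.0447) and 0.79 (SE 0.23, adjusted p = 0.0306). Both calls of Bhlhe40 held in each setting tried. That of Tef was lost without 60-day control replicate 1 (adjusted p = 0.0968), that of the second Hlf probe set without 60-day control replicate 1 or 2, 3-day control replicate 1 or 3 or 3-day PI replicate 3 (0.0518 to 0.111), and that of the Hlf lead in 11 settings (0.0551 to 0.168), 10 of which left out 1 array. Between 60 and 14 days none of the 19 was called by limma and 0.0548% of all probe sets were, while 1917 of all probe sets had an unadjusted p under 0.05. The injury effects of Dbp at 14 and 3 days differed by -1.59 (SE 0.61, adjusted p = 0.136) and those of Nr1d1 by -1.12 (SE 0.47, adjusted p = 0.175). Without 3-day control replicate 2 these were -0.81 (SE 0.47, adjusted p = 0.358) and -0.49 (SE 0.34, adjusted p = 0.460), while without 3-day control replicate 1 that of Dbp was -2.23 (SE 0.55, adjusted p = 0.0247). With array weights both were called (adjusted p = 0.00718 and 0.0218). With all arrays weighted alike, the effects of Dbp at 3 and 14 days were not shown to differ.

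Within PI mucosa alone, 6 of the 19 probe sets changed across time by limma's moderated F test, where 34% of all probe sets did. They were the lead of Per3 (adjusted p = 0.00416), the second of Tef (0.00708), 3 of Hlf (3.67e-06, 1.33e-04 and 6.13e-05) and Bhlhe40 (7.03e-07). From 3 to 14 days PI 7 of 19 were called, against 30.6% of all, and from 3 to 60 days 6, against 34.1%. Hlf rose by 0.62 log2 on its lead from 3 to 14 days PI (SE 0.10, adjusted p = 6.48e-05) and by 0.82 from 3 to 60 days (SE 0.10, adjusted p = 1.80e-06). Bhlhe40 fell by 1.22 (SE 0.13, adjusted p = 4.94e-07) and by 0.91 (SE 0.13, adjusted p = 1.26e-05) over the same spans. The lead of Per3 rose by 0.35 (SE 0.13, adjusted p = 0.0461) and by 0.60 (SE 0.13, adjusted p = 0.00134). Its second probe set did not rise, with PI means of 5.43, 5.24 and 5.29 at 3, 14 and 60 days. The probe sets of Per3 thus disagree. The leads of the other 7 genes were not called across the PI groups. Their means from 3 to 60 days PI differed by 0.03, 0.04, -0.38 and 0.26 log2 for Per1, Per2, Dbp and Bhlhe41 and by 0.67, 0.50 and 0.37 for Nr1d1, Nr1d2 and Tef. In control mucosa none of the 19 was called by the F test and 0% of all probe sets were, while 1814 of all probe sets had an unadjusted p under 0.05. The control means of Nr1d1 differed between 14 and 3 days by 1.10 log2 (95% interval 0.33 to 1.87) and those of Dbp between 60 and 3 days by 1.35 (0.23 to 2.48), and neither was called (adjusted p = 1.00 and 0.788). Without 3-day control replicate 2, left out here after seeing the data, these differences were 0.46 and 0.57.

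The partners of these genes in the clock were counted next. Of 12 clock partners on the array 3 were called at 3 days PI, none at 14 days and 1 at 60 days, with median log2 fold changes of -0.10, 0.07 and 0.20. The shares of all probe sets called were 23%, 1.92% and 0.0387%. Npas2, which pairs with BMAL1, read 8.15, 7.85, 7.79, 7.63 and 8.05 at 3 days PI against 8.66, 9.14 and 9.09 in controls, and 9.41, 8.90, 8.76, 9.59 and 9.34 at 60 days PI against 7.77 and 8.21. It fell by 1.07 log2 at 3 days (SE 0.17, adjusted p = 7.63e-05), was 0.61 higher without a call at 14 days (SE 0.17, adjusted p = 0.0632) and rose by 1.21 at 60 days (SE 0.19, adjusted p = 0.0162). Bmal1, the central activator, read 9.14, 8.80, 8.91, 8.32 and 8.97 at 14 days PI against 8.30, 8.32 and 8.07, and 8.96, 8.68, 8.66, 9.15 and 8.95 at 60 days PI against 8.0 and 7.80. Its differences were -0.34, 0.59 and 0.98 at 3, 14 and 60 days (SE 0.18, 0.18 and 0.20; adjusted p = 0.178, 0.0976 and 0.0907). Cry1, whose protein is the partner of the PER proteins, had differences of -0.36, 0.70 and 0.54 (adjusted p = 0.239, 0.107 and 0.587). At 3 days Timeless, a gene of DNA replication in mammals, rose by 0.83 (SE 0.09, adjusted p = 9.22e-07), and Bmal2 by 0.31 (SE 0.09, adjusted p = 0.0215). The injury effects at 14 and 3 days differed for 5 of the 12 partners, by 1.68 for Npas2 (SE 0.24, adjusted p = 1.15e-04), 1.06 for Cry1 (SE 0.30, adjusted p = 0.0358), 0.94 for Bmal1 (SE 0.25, adjusted p = 0.0264) and -0.61 for Timeless (SE 0.13, adjusted p = 0.00545). At 60 against 3 days they differed for 3, Npas2 (2.27), Bmal1 (1.33) and Timeless (-0.997). Of all probe sets 6.58% were called for 14 against 3 days and 11.4% for 60 against 3 days. The 3-day controls enter all of these differences, and for Npas2, Bmal1 and Cry1 replicate 1 lay apart from the others. It read 8.66, 8.03 and 8.59, against 9.14, 8.91 and 9.64 on replicate 2 and 9.09, 8.73 and 9.38 on replicate 3. The control means of these genes were nearer to replicate 1 at 14 days (8.65, 8.23 and 8.76) and at 60 days (7.99, 7.90 and 8.84).

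Genes downstream of the clock or sharing its inputs were counted in the same way, against 23%, 1.92% and 0.0387% of all probe sets at 3, 14 and 60 days. Of 7 clock output genes 5 were called at 3 days PI, 3 lower and 2 higher, and 2 at 14 days, both lower. Alas1, the first enzyme of haem synthesis, fell by 0.89 at 3 days (SE 0.14, adjusted p = 5.85e-05) and by 0.64 at 14 days (SE 0.14, adjusted p = 0.0138), and Por, the electron donor of the cytochrome P450 enzymes, fell by 0.55 at 14 days (SE 0.14, adjusted p = 0.0495). Of 7 glucocorticoid-responsive genes 4 were called at 3 days and 4 at 14 days, with 3 lower and 1 higher each time. Tsc22d3 (GILZ) fell by 0.83 (SE 0.14, adjusted p = 1.35e-04) at 3 days, and Fkbp5, a chaperone of the glucocorticoid receptor, by 0.63 (SE 0.13, adjusted p = 0.0138) at 14 days, while Cdkn1a, which is also a target of p53, rose by 1.03 (SE 0.18, adjusted p = 2.12e-04) and 1.02 (SE 0.18, adjusted p = 0.00264). Of 9 hypoxia-responsive genes 7 were called at 3 days, 5 lower and 2 higher, and of 8 immediate early genes 4, with 2 in each direction. None of either list was called at 14 or 60 days, and no clock output or glucocorticoid-responsive gene was called at 60 days.

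Replicate pools of the same group also varied, and part of that variation ran opposite to Bmal1. Deviations from the group mean were correlated with those of Bmal1 over the 23 mucosa arrays for the 10 lead probe sets, with a permutation test within groups (100000 resamples, two-sided) and adjustment over the 10 genes. Pearson's r was -0.80 for Nr1d1 (Spearman's rho -0.64, permutation p = 0.00194 and 0.0141, adjusted p = 0.0097 and 0.0704). It was -0.76 for Dbp (rho -0.58, permutation p = 0.0012 and 0.0216, adjusted p = 0.0097 and 0.0720) and -0.76 for Per3 (rho -0.68, permutation p = 0.00784 and 0.00646, adjusted p = 0.0261 and 0.0646). These 3 passed by Pearson's r and none of the 10 by Spearman's rho. The other r values lay between -0.60 (Per1) and 0.44 (Bhlhe40, the one value above 0). Without the 2 arrays whose Bmal1 deviated most, 3-day control replicate 1 and 14-day PI replicate 4, r was -0.58 for Nr1d1, -0.61 for Dbp and -0.34 for Per3, and the median over the genes moved from -0.42 to -0.09. The relation rests largely on those arrays for most of the genes. Without the 3-day control arrays, which left 20 arrays, the r of these 3 genes was -0.84, -0.69 and -0.61.

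The members also differed in which of them varied together. The deviations of Tef and Nr1d2 had a Pearson's r of 0.92 and those of Dbp and Nr1d1 of 0.82 over the 23 arrays, which share their processing. The pairs parted on 60-day PI replicate 4, an array with low ribosomal genes. There Nr1d2 and Tef were the highest of their group (11.66 and 10.19) while Dbp was the lowest (7.72). Nr1d1 was also the lowest, at 9.16, but close to replicate 1 at 9.20. Bhlhe41, of neither pair, was the lowest of its group there at 8.95. On 3-day control replicate 2 the pairs did not part: all of Dbp, Tef, Nr1d1 and Nr1d2 were low, and Bhlhe41 was the highest of its group at 10.91. Per1 and Bhlhe40 deviated in opposite directions, with an r of -0.63.

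**Figure D3:**
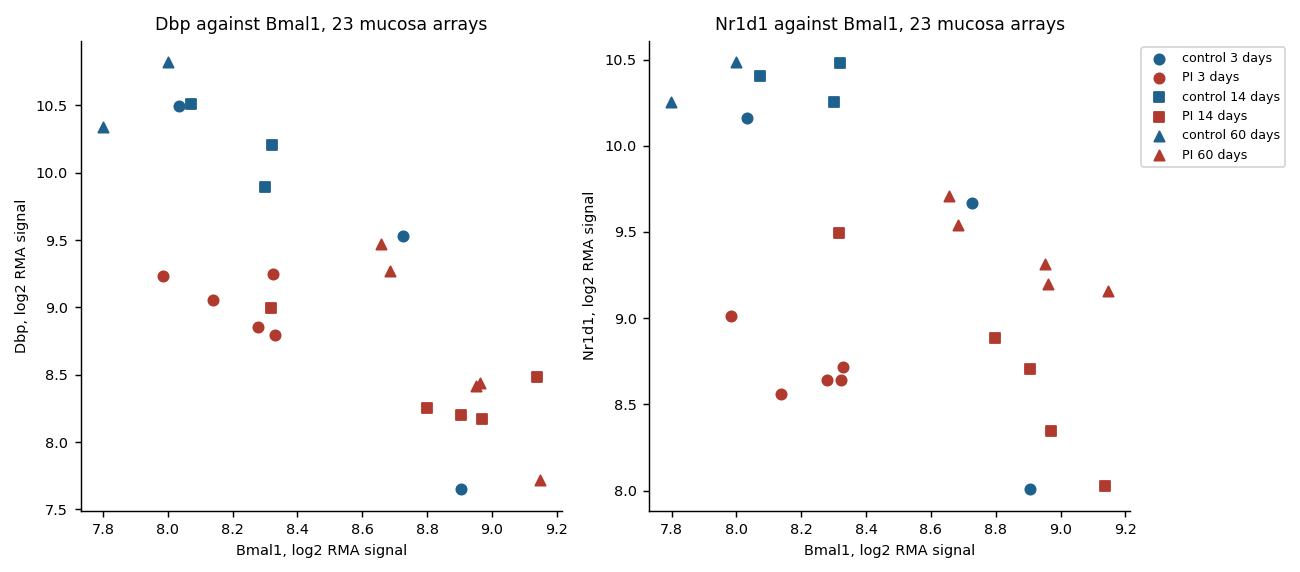
Log2 RMA signal of Dbp (left) and Nr1d1 (right) against that of Bmal1 on the 23 mucosa arrays, with controls in blue and PI arrays in red, and circles, squares and triangles for 3, 14 and 60 days. The 3-day PI arrays lie at Bmal1 values of 7.98 to 8.33 but Dbp values of only 8.79 to 9.25, and 2 of the 3-day controls lie at Bmal1 values like those of the PI arrays of later days.

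By likeness over all 23 mucosa arrays, Nr1d1 was the gene closest to Dbp of the 14217 genes with their lead probe sets (r = 0.84). Tef, Per2, Per3, Nr1d2, Bhlhe41 and Per1 were within the first 62 (r between 0.61 and 0.70), Hlf was at rank 1179 and Bhlhe40 at rank 4326. The 4 closest genes outside the set were Kctd14, Hspa13, Smpdl3b and Lmod2 (r = 0.79, 0.76, 0.74 and 0.74). The 4 most opposed were Dtx4, Cry1, Bmal1 and Adgrl2 (r = -0.81, -0.80, -0.80 and -0.74). These values include the differences between groups and arrays that share a harvest, and they are a description.

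Members were also compared between culture and mucosa, where the share called in either direction was near that of all probe sets (63.2% against 56.9%). Naive fibroblasts were set against 60-day control mucosa, both from uninjured rats of the same age, and 12 of 19 probe sets were called, against 56.9% of all, with 8 lower (21% of all) and 4 higher (35.9%). The median of all probe sets was 0.15 log2 higher in culture, and differences are given without subtracting it. Hlf had the largest difference of the members: its lead read 5.996, 6.07 and 5.77 in naive fibroblasts and 10.27 and 10.16 in mucosa, a difference of -4.27 (SE 0.18, adjusted p = 6.40e-19), or 19.3-fold lower, and its second probe set and the third differed by -3.19 and -4.32. In contrast, Bhlhe40 read 12.13, 12.03 and 11.62 in culture against 9.583 and 9.503, a rise of 2.38 (SE 0.21, adjusted p = 2.92e-11), or 5.22-fold. The lower genes included Per2 (-1.70, SE 0.18, adjusted p = 3.33e-09), Nr1d2 (-1.66, SE 0.31, adjusted p = 3.18e-05), Bhlhe41 (-0.88, SE 0.28, adjusted p = 0.00760) and the lead of Tef (-0.54, SE 0.23, adjusted p = 0.0444), while the second probe sets of Per2, Per3 and Tef were higher by 0.67, 0.47 and 0.67. The call of Bhlhe41 was lost without 60-day control replicate 2 (adjusted p = 0.0517), and that of the Tef lead without either 60-day control array, without naive replicate 2 or 3 and with the controls of all ages pooled (0.0517 to 0.176). Dbp, Nr1d1, Per1 and Per3 were not called on their lead probe sets (differences of -0.95, -0.46, 0.27 and 0.31). Of 12 clock partners 4 were higher and 3 lower, led by Rorb, Nfil3 and Rora (higher by 1.87, 1.71 and 1.71; SE 0.27, 0.37 and 0.18; adjusted p = 7.69e-07, 2.21e-04 and 2.15e-09) and Npas2 (-1.43, SE 0.26, adjusted p = 2.89e-05). Of 8 immediate early genes 6 were higher and 1 lower, and all 8 epithelial, 11 muscle, 7 leukocyte and 3 endothelial markers were lower in culture. Cell content and growth conditions differ together between tissue and culture and cannot be told apart here.

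Scar fibroblasts differed from naive fibroblasts in 2 of the 19 probe sets, where 3.57% of all probe sets were called. Per2 read 9.41, 9.24, 9.10 and 8.85 in the 4 scar cultures and 8.49, 8.18 and 8.21 in the 3 naive cultures, with no overlap. Scar cultures were higher by 0.85 log2 (SE 0.14, adjusted p = 0.00879, 1.81-fold), whereas mucosa at the same time after injury was lower on the same lead probe set. The call was lost with the 7 arrays fitted alone (adjusted p = 0.0564) and without naive replicate 2 (0.0523). The other Per2 probe set read 8.80 to 9.11 in scar and 8.73 to 9.005 in naive cultures, with overlap. The probe sets of Per2 thus disagree in culture too. The second Tef probe set differed by -0.58 (SE 0.12, adjusted p = 0.0211), and that call was lost with the 7 arrays fitted alone (0.111) and without naive replicate 2 or 3 or scar replicate 3 (0.105, 0.0793 and 0.0592). Per1 read 9.70, 9.75, 9.58 and 9.60 in scar cultures against 9.74, 9.04 and 8.80, a difference of 0.46 (SE 0.17, adjusted p = 0.168) that rose to 0.74 (adjusted p = 0.0108) without naive replicate 1. Nr1d2 differed by -0.38 on its lead without a call (SE 0.10, adjusted p = 0.0582), and it was called without scar replicate 1 or 4 (0.0393 and 0.0424). Of the other lists, Fkbp5 alone of the glucocorticoid-responsive genes was called, higher by 0.92 (SE 0.13, adjusted p = 0.00391), and no clock partner was.

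After siRNA against gp46 no difference of the members was detected. The targeted gene Serpinh1 read 12.43, 12.64 and 12.67 after gp46 siRNA and 12.99, 12.96 and 12.93 after scramble, a difference of -0.38 (SE 0.10, adjusted p = 1.00). By limma none of the 19 probe sets was called and 0% of all probe sets were, while 802 of all probe sets had an unadjusted p under 0.05. The differences of the 10 lead probe sets were between -0.14 and 0.27, and their 95% intervals reached from -0.69 to 0.69. This does not show that the cultures were alike.

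Scramble-treated scar cultures differed more from untransfected ones, which had not been through the same transfection and change of medium. Of 19 probe sets 6 were called, against 22.8% of all. Per1 read 8.34, 8.48 and 8.56 after scramble against 9.58 to 9.75 in the 4 untransfected cultures and fell by 1.20 log2 (SE 0.17, adjusted p = 3.73e-04, 2.29-fold). Bhlhe40 read 10.70, 10.77 and 11.09 against 11.82, 11.41, 11.61 and 12.19 and fell by 0.91 (SE 0.19, adjusted p = 0.00432), and Nr1d1 fell by 0.59 (SE 0.13, adjusted p = 0.00648). The second Tef probe set read 8.39, 8.49 and 8.43 against 6.69, 7.10, 6.77 and 6.62 and rose by 1.65 (SE 0.12, adjusted p = 4.44e-06), while the lead of Tef differed by 0.15 (SE 0.09, adjusted p = 0.288), so the probe sets of Tef disagree. Nr1d2 rose by 0.52 (SE 0.10, adjusted p = 0.00285) and the third Hlf probe set by 0.49 (SE 0.11, adjusted p = 0.00770), a probe set that lay between 3.84 and 4.03 log2 in the untransfected cultures, among the lowest signals. The immediate early genes moved in the same comparison, with 7 of 8 lower, and the clock partners with 6 of 12 lower and 1 higher, among them Nfil3, the repressor that competes with the PAR-bZIP factors for D-boxes, at -2.37 (SE 0.41, adjusted p = 0.00147). Timeless was higher by 1.75 (SE 0.25, adjusted p = 3.96e-04), and Npas2 and Bmal1 differed by -1.19 (SE 0.26, adjusted p = 0.00654) and -0.62 (SE 0.10, adjusted p = 7.06e-04). Their part in the members' values was not tested.

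**Figure D4:**
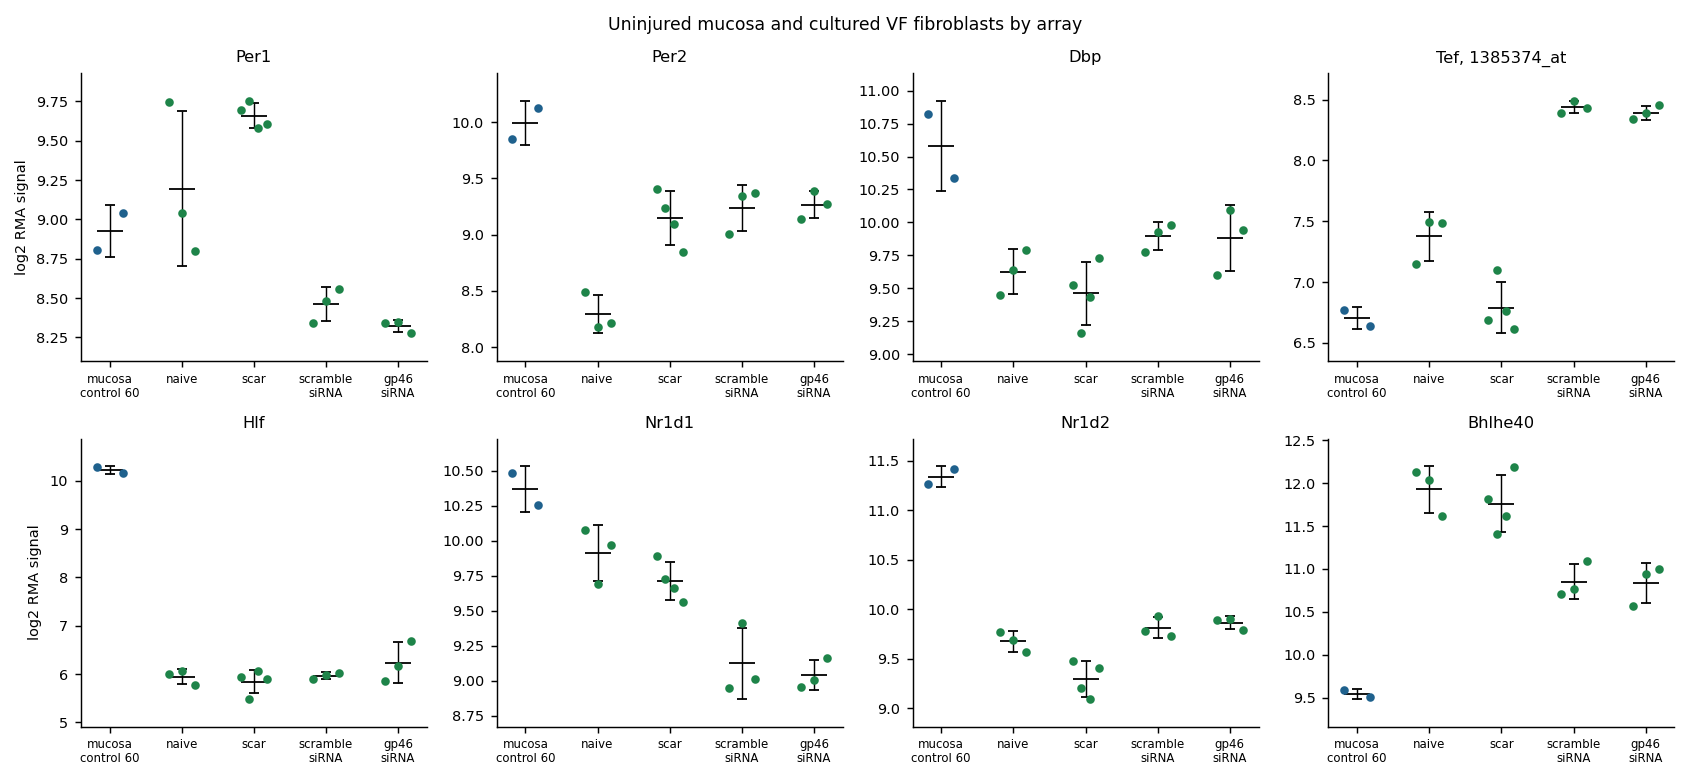
Log2 RMA signal (y axes, each with its own range that does not start at 0) of 7 lead probe sets and the second Tef probe set on every array of 60-day control mucosa (blue) and of naive, scar, scramble siRNA and gp46 siRNA fibroblasts (green), with group mean and SD in black. Hlf lies near 6 in all cultures against 10.2 in mucosa, Per2 is higher in scar than in naive cultures, and both siRNA groups lie together, below the untransfected scar cultures for Per1, Nr1d1 and Bhlhe40.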

How the data were processed

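RNA of VF mucosa and cultured VF fibroblasts was hybridized to Affymetrix rat genome arrays, 36 in all. The authors summarized the probes by RMA (the submitters' notes name RMA and affy, versions not given in the sources used here) and deposited log2 signals of 31099 probe sets; 57 array controls were left out. Depth does not apply to arrays, and no probe-level data, scan batch or hour of harvest was used here. Probe sets were named from GEO's platform annotation (20826 with 1 symbol, 436 with several, 9780 with none), 20764 of them updated by gene number.

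Groups came from the array labels, which give 5 PI and 2 control arrays at 60 days. By the methods, RNA sufficed for only 4 of the 5 PI arrays planned at 60 days, and all others were run as planned. The labels thus give more PI and fewer control arrays than the methods. This could not be settled here, and every 60-day comparison, including the call of Per2, rests on the labels. With limma 3.58.1 (R 4.3.3), the 6 mucosa groups shared 1 fit over 23 arrays and the 4 culture groups another over 13 arrays, while naive cultures and 60-day control mucosa were compared in a fit of all 36 arrays. P values were adjusted by Benjamini-Hochberg over 31042 probe sets and called under 0.05. No replicate block was used. The tests were tried on simulated data with 200 changed probe sets. Alternatives were array weights, a variance trend, a filter on the 30% of lowest mean, pooled controls, time points alone, other choices of probe set and each array left out. The text names every member probe set, up to 4 called clock partners and up to 2 called genes of each other list per comparison, and the 4 genes most and least like Dbp. Members and lists were chosen with earlier results of these data known. Correlations and figures were made in Python 3.11.15 with numpy 2.4.6 and matplotlib 3.10.9.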

Additional observations from a re-analysis of the deposited data

Results flagged for a closer look

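Over the 19 member probe sets and the 4 sample groups of 4 or 5 arrays, 76 sets of values in all, 7 held an array far from the others by Dixon's criterion, which chance alone meets in about 1 of 20 sets. On 60-day PI replicate 4 these were Per3 at 6.08 (the other arrays 6.45 to 6.55), the second Hlf probe set at 9.26 (8.58 to 8.72) and the third Nr1d2 probe set at 8.79 (6.47 to 7.06). On 3-day PI replicate 5 they were the second probe sets of Per2 at 7.93 (8.28 to 8.42) and Tef at 6.56 (6.32 to 6.35). The third Nr1d2 probe set was at 5.22 on 14-day PI replicate 4 (6.53 to 6.84), and the second Hlf probe set at 5.62 on scar replicate 4 (6.07 to 6.14). The first 2 of these arrays are among the 3 with low ribosomal and respiratory chain genes, and the part of that in the values was not tested.

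Injury effects that differed between time points by the test of the difference were those of Bhlhe40 at 14 against 3 days (-1.45 log2) and at 60 against 3 days (-1.11), the second Tef probe set at 60 against 3 days (-0.90), and the lead and second Hlf probe sets at 60 against 3 days (0.54 and 0.79). The Tef and Hlf calls were lost on leaving out single arrays (adjusted p up to 0.0968, 0.168 and 0.111), and those of Bhlhe40 were not.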

How the results depend on the processing

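Across the alternatives, 2925 values of single member probe sets were recomputed. Of these 2774 kept their side of the threshold, 93 passed it and 58 no longer did, and none that was called turned its sign. Some values without a call did change direction, such as the 3-day difference of Dbp, which lay between -0.98 and 0.45. Counts of called probe sets out of 19 moved with array weights to 15 at 14 days, 3 at 60 days, 10 for the difference between 14 and 3 days, 8 for that between 60 and 3 days, 11 across time in PI and 1 across time in control mucosa. With each time point fitted alone the counts were 12 at 14 days and 0 at 60 days, and 10 and 4 after pooling the control arrays of all ages. Without the 3 arrays with low ribosomal genes the differences from 3 days counted 4 (14 days) and 7 (60 days). With the probe sets of a gene averaged, 4 genes in place of 6 were called at 3 days, 8 in place of 6 at 14 days and 0 in place of 1 at 60 days. With the 2 groups fitted alone, or with a replicate block by the number in the sample name, 0 of 2 were called between scar and naive cultures. Leaving out 1 array at a time gave 5 to 11 at 3 days (5 without control replicate 1), 2 to 7 at 14 days (3 and 2 without control replicates 1 and 2), 0 to 2 at 60 days (0 without PI replicate 2 or 5 or either control, 2 without PI replicate 1), 1 to 4 for 14 against 3 days (2 without 3-day PI replicate 3 or 5, 4 without 3-day control replicate 1), 1 to 7 for 60 against 3 days (at 60 days, 1 without control replicate 1, 2 without the other control, replicate 2, and 7 without PI replicate 4; at 3 days, 2 without PI replicate 3 or control replicate 3), and 0 to 3 for scar against naive cultures (0 without naive replicate 2, 1 without naive replicate 3 or scar replicate 3). Replicate numbers did not pair the arrays: Pearson's r of the deviations of same-numbered arrays was between -0.16 and 0.26 in mucosa, 0.08 and 0.12 for scar and naive and 0.09 and 0.44 for the siRNA cultures. With a replicate block the counts were 8, 6 and 1 at 3, 14 and 60 days, 3 for 60 against 3 days, 3 for scar against naive and 7 for scramble against untransfected cultures. The median r with Bmal1 was -0.65 without the 3 arrays with low ribosomal genes and -0.37 without the 3-day controls, the latter tried after seeing the data. The background correction could not be varied without probe-level data, and precision is limited by 2 or 3 control arrays at each time point.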
